A study of Mus musculus with 10 samples.

Results

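The genes described here are 9 inhibitors of serine and cysteine proteases, measured in mouse lung after cigarette smoke or room air. They were chosen by name as Serpina1b, Serpina1d, Serpina1e, Serpina3n, Serpinb1a, Slpi, Wfdc2, Cst3 and Stfa1, and every probe carrying one of these names, or a current symbol found through its accession, was taken. All 9 genes were on the array, with 12 of the 41173 probes tested and 9 of the 27669 genes those probes stand for. The 3 Stfa1 probes carry an accession that the RefSeq table now lists under Cstdc6, a stefin gene of the same family, and they are called Stfa1 here as in the scanner files.

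Lungs of 5 female BALB/c mice that breathed the smoke of 12 cigarettes in each of 2 daily exposures of 50 minutes, 5 days per week for 8 weeks, were compared with lungs of 5 female BALB/c mice kept in room air for the same 8 weeks. The mice were 6 to 8 weeks old when obtained, and each array held the lung RNA of 1 mouse. BALB/c is an inbred laboratory strain. Between 64.0% and 76.9% of the probes were well above background in the lung channel on each array, and with 5 arrays a group the precision is limited by their number.

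Proteases released by white blood cells can digest elastin and collagen, and the lung is protected by inhibitors made locally and brought by the blood. Serpins are suicide inhibitors that trap a serine protease in a covalent complex, whereas whey acidic protein (WAP) proteins such as Slpi block the active site reversibly, and cystatins and stefins do the same to cysteine cathepsins. Inherited lack of alpha-1 antitrypsin, the human counterpart of the Serpina1 family, is a known cause of emphysema.

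Each value below is the log2 ratio of the red over the green channel of an array, and a difference is the smoke mean minus the room air mean on that log2 scale. The labels name a single dye, but each scanner file holds both colours, so genes that mark sex and lung were used to tell what each colour held. The Y chromosome genes Ddx3y and Eif2s3y had mean log2 ratios of −2.23 and −1.98, and were well above background in green on 10 of 10 arrays. The lung genes Sftpc and Scgb1a1 had mean log2 ratios of 5.77 and 6.60. Red was therefore read as the female lung and green as a reference that the labels do not describe. Cyp1b1 and Nqo1, which smoke is known to induce, were 8.37-fold and 4.22-fold higher on the arrays labelled smoke.

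With smoke 2 of the 9 inhibitor genes rose, Serpinb1a and Slpi, and 0 of the 9 fell past the threshold, an adjusted p of 0.05 from limma over all probes. A gene is represented by its probe with the brightest red signal. Over all 27669 genes 8.22% were called in either direction and 4.95% were called higher, and of all 41173 probes 7.06% were called, against 2 of the 12 inhibitor probes. The groups did not overlap for 2 of the 9 genes, against 7.89% of the 27639 genes compared this way. The value was higher with smoke on all 5 slides for the same 2 of 9, against 11.9% of genes. The median difference was 0.089 over the 9 genes and -0.0042 over all genes. Of the 2906 probes called, 61.7% were higher with smoke, and with median centring in place of loess 47.9% of 1434 were. An exact Wilcoxon test called 0 probes after adjustment. Its smallest unadjusted p with 5 arrays a group was 0.00794, which makes a call over 41173 probes hard to reach. The 0 calls therefore decide nothing about single genes. The test gave 5446 probes at an unadjusted p under 0.05, which cannot be set against the 2906 that limma called after adjustment.

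Each slide held the smoke and the room air array of the same replicate number, so the slide could be fitted as a block. With this replicate block 3 of the 9 genes were called, with Serpina3n added, against 13.8% of all genes, and 5019 probes were called. The smoke array had the same place on each slide and the room air array the other, so place and group cannot be told apart.

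Room air replicate 1 stood apart from the other room air arrays, and it enters several results below. It lay above the next array of its group by over 0.71 of the group's range for 645 of 27655 genes, and no other array of either group was so for more than 332. Without it, 4 of the 9 inhibitor genes were called, with Serpina3n and Stfa1 added, against 10.4% of all genes.

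**Figure D1:**
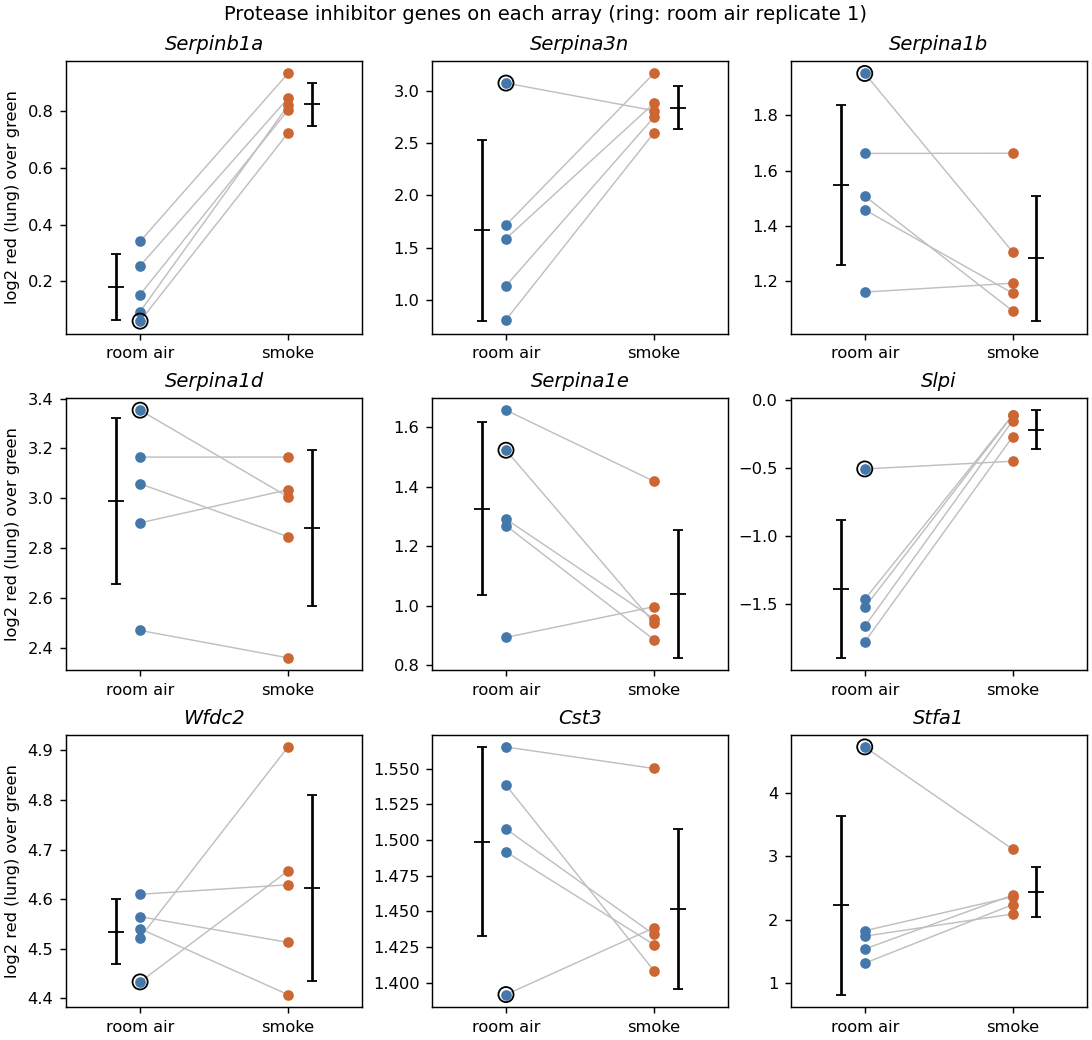
Log2 red (lung) over green of the 9 inhibitor genes on each of 10 arrays, with grey lines joining arrays of the same slide and black bars showing the mean and SD of 5 arrays. Smoke arrays lie above all room air arrays for Serpinb1a and Slpi, while room air replicate 1 (ring) lies near or above the smoke arrays for Serpina3n and Stfa1.

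Serpinb1a, an intracellular serpin that inhibits the neutrophil proteases elastase, cathepsin G and proteinase 3, had the smallest adjusted p of the 9. Its probe lies at chr13:32208400-32208459 on the minus strand of build mm7 and is shown because the clearest change among the 9 genes was read from it.
Serpinb1a: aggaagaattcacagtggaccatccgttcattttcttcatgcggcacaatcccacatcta
Its log2 ratio was 0.06, 0.09, 0.25, 0.15 and 0.34 in room air replicates 1 to 5 and 0.72, 0.82, 0.85, 0.80 and 0.93 in smoke replicates 1 to 5. Every smoke array was above every room air array, and the arrays of slide 1 were the lowest of each group. The difference was 0.65 ± 0.063 (SE, n = 5 per group), a 1.57-fold rise with an adjusted p of 0.000117, and it was positive on 5 of 5 slides. Within slides the difference ranged from 0.59 to 0.73. In whole lung, more cells of a type and more RNA per cell cannot be told apart, nor can fewer cells and less RNA.

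Serpina3n, a secreted serpin of the acute-phase response, did not pass the threshold on all 10 arrays. Its log2 ratio was 3.07, 1.59, 1.72, 0.81 and 1.14 in room air and 2.81, 2.88, 3.16, 2.60 and 2.75 with smoke. The smoke arrays were high and close together, and 4 room air arrays were below them, while room air replicate 1 was among them. The difference was 1.17 ± 0.34 (SE, n = 5 per group), 2.26-fold, with an adjusted p of 0.0644 from limma, and it was positive on 4 of 5 slides. With the replicate block the adjusted p was 0.0250. Without room air replicate 1 the difference was 1.53, 2.88-fold, with an adjusted p of 0.000254, and over all 25 alternatives the adjusted p ran from 0.000254 to 1.00.

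The 3 Serpina1 genes encode secreted inhibitors of neutrophil elastase that the liver makes in large amounts. They lie side by side in a cluster of near copies, and the probes of Serpina1b and Serpina1e are shown because cross-reaction between such copies bears on how far each value belongs to 1 gene.
Serpina1b: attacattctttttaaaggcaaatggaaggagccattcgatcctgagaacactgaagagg
Serpina1e: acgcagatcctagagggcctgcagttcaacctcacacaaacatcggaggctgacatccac
On the minus strand of mm7 the Serpina1b probe spans chr12:101224607-101226106, and with 60 bases over 1500 bases of genome it spans an intron. The Serpina1e probe lies at chr12:101445204-101445263 on the same strand. Binding of these probes to the other copies was not tested.

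Serpina1b had log2 ratios of 1.95, 1.51, 1.66, 1.16 and 1.46 in room air and 1.30, 1.09, 1.66, 1.19 and 1.16 with smoke. Serpina1e had 1.52, 1.27, 1.66, 0.89 and 1.29 in room air and 0.94, 0.89, 1.42, 1.00 and 0.96 with smoke. Serpina1d had 3.35, 2.90, 3.17, 2.47 and 3.06 in room air and 3.01, 3.03, 3.17, 2.36 and 2.85 with smoke. The groups overlapped for all 3 genes, and replicate 3 was the highest or the next to highest array of its group for each of them. None passed the threshold, with differences of -0.27 ± 0.14 for Serpina1b, -0.29 ± 0.14 for Serpina1e and -0.11 ± 0.18 for Serpina1d (SE, n = 5 per group). The adjusted p values from limma were 0.386, 0.326 and 0.859, and smoke was lower on 3, 4 and 3 of 5 slides. The 95% intervals of the difference ran from -0.58 to 0.05 for Serpina1b, from -0.60 to 0.02 for Serpina1e and from -0.49 to 0.28 for Serpina1d, so a fall or a small rise of each could be missed. The Serpina1b probe was well above background in green on 0 of 10 arrays, so its ratio rests on a reference at background, and the Serpina1e probe was above it in green on 3 of 5 room air and 2 of 5 smoke arrays. In the red channel alone, with quantile normalization, the differences were -0.28 for Serpina1b, -0.35 for Serpina1e and -0.35 for Serpina1d, with adjusted p values of 0.371, 0.0521 and 0.101 from limma.

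RefSeq promoter windows were held by 8 of the 9 genes, Serpinb1a being without an entry. The windows of Serpina1b, Serpina1d and Serpina1e share a run of 64 bases. It is shown because it is the longest exact run that these near copies share in the 250 bases before their starts.
shared promoter run: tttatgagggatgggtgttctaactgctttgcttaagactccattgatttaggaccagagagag
It lies on the minus strand of GRCm38.p6 at chr12:103738315-103738378 before Serpina1b, at chr12:103773747-103773810 before Serpina1d and at chr12:103957073-103957136 before Serpina1e. Of 32851 promoter windows of the same length, 3 hold it, those of these 3 genes. The letters GTTAAT, part of the sites that the liver factor HNF1 binds, occur on either strand in the windows of the same 3 genes and in 6.43% of all windows.

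Among the other serpins, 3 genes rose and 1 fell of 49 measured, 8.16% against 8.22% of all genes, with a median difference of 0.016. Serpind1, heparin cofactor II, had log2 ratios of 1.29, 1.16, 1.40, 1.13 and 1.05 in room air and 1.90, 1.74, 2.30, 1.85 and 1.89 with smoke. All its smoke arrays were above all its room air arrays. The difference of 0.73 ± 0.10 (SE, n = 5 per group) was a 1.66-fold rise with an adjusted p of 0.00123, positive on 5 of 5 slides. Over the 25 alternatives the Serpind1 difference ran from -0.07 to 1.09 and passed the threshold in 21. Serpinb1c, a close relative of Serpinb1a, rose by 0.50 and Serpinb5 by 0.37, and Serpinh1, the collagen chaperone, fell by 0.46. These last 3 genes were named after their values were seen, and Serpinb5 was well above background in red on 1 of 5 room air and 5 of 5 smoke arrays.

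Slpi, the secretory leukocyte protease inhibitor of airway epithelium and white blood cells, was read by 2 probes, of which the brighter passed the threshold. On mm7 the brighter probe lies at chr2:164095003-164095062 and the dimmer at chr2:164100217-164100276. The brighter probe had log2 ratios of -0.51, -1.67, -1.78, -1.53 and -1.47 in room air and -0.45, -0.15, -0.27, -0.11 and -0.11 with smoke. All smoke arrays were above all room air arrays, but room air replicate 1 came close to them. The difference was 1.17 ± 0.20 (SE, n = 5 per group), a 2.25-fold rise with an adjusted p of 0.00460, positive on 5 of 5 slides. Within slides it was 0.06 on slide 1 and from 1.36 to 1.51 on the other 4 slides.

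The dimmer Slpi probe had log2 ratios of 2.00, 0.57, 1.21, 0.40 and 1.04 in room air and 1.39, 0.73, 1.47, 0.95 and 0.95 with smoke. The groups overlapped throughout. The difference was 0.05 ± 0.27 (SE, n = 5 per group) with an adjusted p of 0.966 from limma, positive on 3 of 5 slides. The dimmer probe was well above background in green on 3 of 5 room air and 0 of 5 smoke arrays, so its ratio rests on a reference at or near background. That 1 probe passed and the other did not is no test of a difference between them. With the mean of both probes the Slpi difference was 0.61 with an adjusted p of 0.121, and over the 25 alternatives the adjusted p ran from 2.75e-06 to 1.00.

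Wfdc2, the other WAP protein of the 9 and a secreted product of airway epithelium, had log2 ratios of 4.43, 4.52, 4.54, 4.61 and 4.56 in room air and 4.66, 4.91, 4.41, 4.63 and 4.51 with smoke. The groups overlapped, with the highest and the lowest value both among the smoke arrays. The difference was 0.09 ± 0.083 (SE, n = 5 per group) with an adjusted p of 0.699, positive on 3 of 5 slides, and its 95% interval ran from -0.09 to 0.27.

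**Figure D2:**
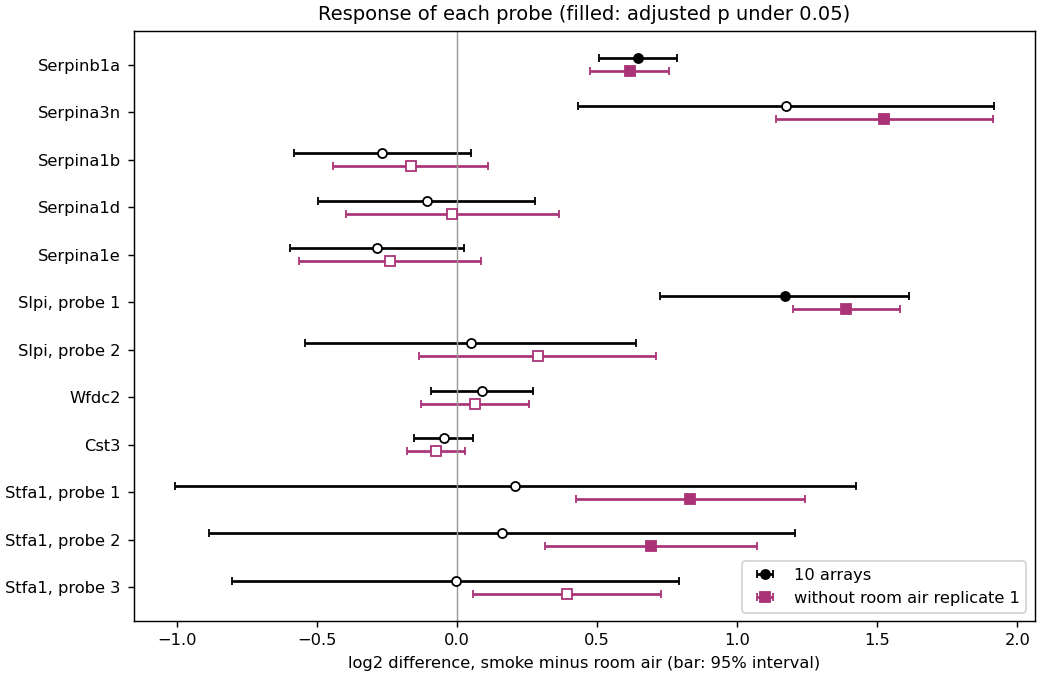
Log2 difference, smoke minus room air, of each of the 12 probes with its 95% interval, on all 10 arrays (black) and without room air replicate 1 (purple), filled where the adjusted p is under 0.05. Probe 1 of Slpi and of Stfa1 is the brightest of its gene, and Serpina3n and Stfa1 probes 1 and 2 pass the threshold in the second set and not in the first.

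Of 25 other WAP, Kunitz and Kazal inhibitors measured, 6 rose and 1 fell, 28.0% against 8.22% of all genes. The median difference was 0.023. With the scanner software's own ratio only 1 of the 25 was called, against 7.17% of all genes. The largest rise was that of Wfdc21, a WAP protein gene, with log2 ratios of 3.15, 1.33, 1.54, 1.48 and 1.64 in room air and 4.69, 4.53, 4.95, 4.16 and 4.73 with smoke. Room air replicate 1 was high among its group, yet below every smoke array. The difference was 2.78 ± 0.31 (SE, n = 5 per group), a 6.88-fold rise with an adjusted p of 0.000258, positive on 5 of 5 slides. Over the 23 alternatives that have a value for Wfdc21, the difference ran from 1.61 to 3.52 and passed the threshold in 21. In green its probe was well above background on 0 of 5 room air and 4 of 5 smoke arrays, so the fold rests on a reference near background. Wfdc18, Wfdc3, Wfdc12, Spink5 and Spint1 rose by 0.58, 0.57, 0.36, 0.33 and 0.30, and Wfdc6a fell by 0.25. These 6 genes were named after their values were seen, and Spink5 was well above background in red on 0 of 5 room air and 5 of 5 smoke arrays. In green Wfdc18 and Wfdc6a were well above background on 1 of 5 arrays of each group, and Spink5 on 0 of 5. Wfdc12 was so on 1 of 5 room air and 2 of 5 smoke arrays. The differences of these genes rest on a reference at or near background.

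Cst3, cystatin C, is a secreted inhibitor of cysteine cathepsins made by most tissues. Its log2 ratio was 1.39, 1.57, 1.51, 1.49 and 1.54 in room air and 1.44, 1.55, 1.43, 1.43 and 1.41 with smoke. The values of both groups lay within a narrow band and overlapped. The difference was -0.05 ± 0.048 (SE, n = 5 per group), with a 95% interval from -0.15 to 0.06 and an adjusted p of 0.731, and smoke was lower on 4 of 5 slides.

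Stfa1, a stefin of the cell interior that inhibits cysteine cathepsins and is known from neutrophils and their precursors, was read by 3 overlapping probes on the minus strand of chromosome 16. Stefin A genes lie in a cluster of near copies, and the probes are shown up to the stop codon because they differ at bases where they overlap, which are in capitals.
Stfa1 A_51_P132185: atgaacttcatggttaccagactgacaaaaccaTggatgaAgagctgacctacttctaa
Stfa1 A_52_P487686: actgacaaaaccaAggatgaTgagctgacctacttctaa
Stfa1 A_51_P384894: gatgaTgagctgacctacttctaa
In mm7 these parts span chr16:36030216-36030274, chr16:36030216-36030254 and chr16:36030216-36030239. Counted from 1 at the 5′ end of A_51_P132185, A_52_P487686 differs from it by T34A and A41T over 40 shared bases, and A_51_P384894 by A41T over 25. Which of the stefin copies each probe bound was not tested.

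The brightest Stfa1 probe, A_51_P384894, had log2 ratios of 4.73, 1.83, 1.54, 1.32 and 1.74 in room air and 3.11, 2.36, 2.39, 2.24 and 2.09 with smoke. Probe A_52_P487686 had 3.47, 0.91, 0.75, 0.76 and 0.84 in room air and 2.16, 1.5, 1.40, 1.40 and 1.07 with smoke. Probe A_51_P132185 had 2.60, 0.57, 0.70, 0.59 and 0.58 in room air and 1.53, 0.81, 1.09, 0.99 and 0.58 with smoke. In all 3 probes room air replicate 1 was the highest of the 10 arrays, smoke replicate 1 of the same slide came second, and the other room air arrays lay low, below all smoke arrays except in A_51_P132185.

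On all 10 arrays the brightest Stfa1 probe differed by 0.21 ± 0.55 (SE, n = 5 per group) with an adjusted p of 0.921 from limma, positive on 4 of 5 slides. The differences of the other probes were 0.16 for A_52_P487686 and 0.00 for A_51_P132185. Without room air replicate 1 they were 0.83 (1.78-fold, adjusted p 0.0167), 0.69 (1.62-fold, adjusted p 0.0289) and 0.39 (1.31-fold, adjusted p 0.168), each positive on the 4 slides left. In green A_51_P384894 was well above background on 3 of 5 arrays of each group and the other Stfa1 probes on 0 of 10, so these folds rest on a reference at or near background. Over the 25 alternatives the adjusted p of the brightest probe ran from 0.00674 to 1.00.

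Of 23 other cystatins and stefins measured, 2 rose and 2 fell, 17.4% against 8.22% of all genes, with a median difference of -0.013. Cstb, the stefin B of most cells, had log2 ratios of -1.33, -1.58, -1.80, -1.85 and -1.59 in room air and -0.74, -0.59, -0.66, -0.71 and -0.69 with smoke. Fetub, a secreted protein of the fetuin group, had -0.49, -0.88, -0.51, -0.72 and -0.48 in room air and 0.46, 0.32, 0.41, 0.25 and 0.15 with smoke. For both genes the smoke arrays were all above the room air arrays. Cstb rose by 0.95 ± 0.089, 1.93-fold, and Fetub by 0.94 ± 0.089, 1.91-fold (SE, n = 5 per group), with adjusted p values of 8.68e-05 and 9.79e-05 and a positive difference on 5 of 5 slides each.

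Cst8, a cystatin relative known from the male reproductive tract, fell. Its log2 ratio was 2.40, 2.61, 2.44, 2.54 and 2.14 in room air and 1.85, 1.53, 1.77, 1.53 and 1.52 with smoke, with no overlap. The change was -0.79 ± 0.097 (SE, n = 5 per group), 1.72-fold lower with an adjusted p of 0.000563, and negative on 5 of 5 slides. Over the 23 alternatives that have a value for Cst8, the change ran from -1.15 to -0.18 and passed the threshold in 21. Its probe was well above background in green on 0 of 10 arrays, so the fold rests on a reference at background. Cstdc2, a stefin relative named after its value was seen, fell by 0.54.

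**Figure D3:**
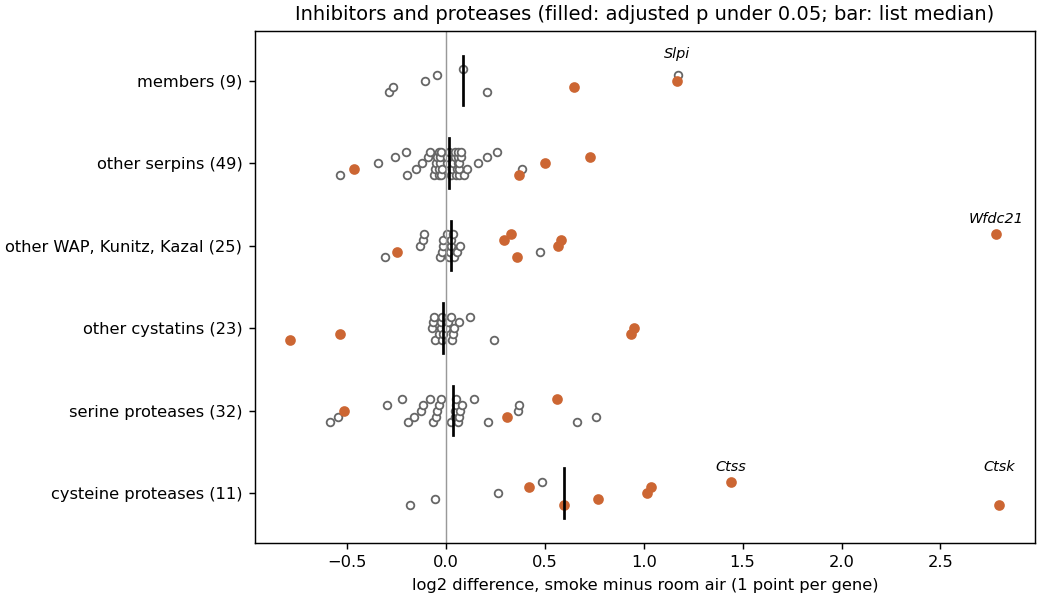
Log2 difference, smoke minus room air, of the 9 inhibitor genes and of 5 gene lists, with 1 point per gene, filled where the adjusted p is under 0.05, and a bar at each median. The bars of the other inhibitors and the serine proteases lie near 0, and that of the 11 cysteine proteases at 0.60.

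The targets of these inhibitors are proteases of 2 classes. Of 32 serine proteases measured, 2 rose and 1 fell, 9.38% against 8.22% of all genes, with a median difference of 0.035. Prss8, the epithelial protease prostasin, rose by 0.56, Hpn, the membrane protease hepsin, by 0.31, and Cma1, the mast cell chymase, fell by 0.51, all named after their values were seen. With the replicate block 7 of the 32 were called, where 13.8% of all genes were, and without room air replicate 1 there were 6, where 10.4% were. Leaving out each array in turn gave from 1 to 6, against 6.06% to 10.4% of all genes. Elane, neutrophil elastase and the main known target of the Serpina1 proteins, Serpinb1a and Slpi, was well above background in red on 0 of 10 arrays. Ctsg and Prtn3, the other granule proteases of neutrophils, had differences of 0.06 and -0.04 with adjusted p values of 0.635 and 0.824 from limma.

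Of the 11 cysteine cathepsins and legumain, the targets of cystatins and stefins, 7 rose and 0 fell, 63.6% against 8.22% of all genes, with a median difference of 0.60. Ctsk, cathepsin K, a collagen- and elastin-degrading protease, had log2 ratios of 2.21, 1.85, 2.30, 1.52 and 2.20 in room air and 4.92, 4.83, 4.90, 4.56 and 4.86 with smoke. Ctss, cathepsin S of antigen-presenting cells, had 1.45, 1.49, 1.45, 1.27 and 1.63 in room air and 2.78, 2.79, 3.09, 2.73 and 3.11 with smoke. Neither gene had a room air array near its smoke arrays. Ctsk rose 6.95-fold, by 2.80 ± 0.14, and Ctss 2.72-fold, by 1.44 ± 0.092 (SE, n = 5 per group), with adjusted p values of 6.64e-07 and 4.95e-06 and a positive difference on 5 of 5 slides each.

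Ctsz had log2 ratios of -0.14, -0.31, -0.40, -0.37 and -0.35 in room air and 0.80, 0.65, 0.82, 0.71 and 0.64 with smoke. Ctsb, an abundant lysosomal cathepsin, had -0.02, -0.50, -0.38, -0.65 and -0.43 in room air and 0.48, 0.67, 0.77, 0.60 and 0.59 with smoke. Neither pair of groups overlapped. Ctsz rose 2.05-fold (1.04 ± 0.061) and Ctsb 2.02-fold (1.02 ± 0.10; SE, n = 5 per group), with adjusted p values of 2.73e-06 and 0.000150, on 5 of 5 slides each.

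Ctsc, which activates the granule serine proteases of white blood cells, had log2 ratios of 4.28, 3.61, 3.67, 3.56 and 3.63 in room air and 4.57, 4.45, 4.57, 4.35 and 4.67 with smoke. Ctsl had -2.13, -1.86, -1.83, -2.0 and -1.99 in room air and -1.45, -1.35, -1.30, -1.45 and -1.27 with smoke. Room air replicate 1 was the highest of its group for Ctsc and the lowest for Ctsl, and the groups did not overlap for either gene. Ctsc rose 1.70-fold (0.77 ± 0.13) and Ctsl 1.51-fold (0.60 ± 0.066; SE, n = 5 per group), with adjusted p values of 0.00346 and 0.000266, on 5 of 5 slides each. Ctsh, named after its value was seen, was the other gene that rose, by 0.42.

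Cell types that hold these inhibitors and proteases were followed by marker lists. Of 11 macrophage markers measured 7 rose, 63.6% against 8.22% of all genes called and 4.95% called higher, with a median difference of 1.34. Marco, Chil3, Msr1 and Cd68, with differences of 2.60, 2.12, 2.10 and 2.06, were named after their values were seen, as are the called genes of the next marker lists. The differences of the 11 markers were positive for 9, and those of Mertk and Fabp4 were -0.22 and -0.25. With the replicate block Mertk was called lower, with an adjusted p of 0.0351 from limma and a negative difference on 5 of 5 slides. The mean log2 ratio of the macrophage list was 2.45, 2.11, 2.18, 2.12 and 2.03 in room air and 3.31, 3.32, 3.44, 3.28 and 3.30 with smoke. By mean log2 ratio the macrophage list separated the groups completely, as Serpinb1a, the brighter Slpi probe and the cathepsins with array values above did. Its summed red signal ran from 353359 to 456873 in room air and from 436563 to 573152 with smoke, and its gene with the brightest red signal, Lyz2, gave 83.4% of the sum on average and had a difference of 0.18 with an adjusted p of 0.705 from limma. The part of macrophage number in these results was not tested.

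Of 18 neutrophil markers measured 4 rose, 22.2% against 8.22% of all genes, with a median difference of 0.13. They were Cd177, Il1r2, Mmp8 and Camp, with differences of 2.34, 1.54, 1.16 and 0.60. In green Mmp8 and Camp were well above background on 0 of 10 arrays. Il1r2 was so on 1 of 5 room air and 2 of 5 smoke arrays, and Cd177 on 2 of 5 and 5 of 5. A positive difference was found for 13 of the 18, and the lowest was that of Retnlg, -0.43. The mean log2 ratio of the neutrophil list was 2.38, 1.39, 1.45, 1.22 and 1.37 in room air and 2.15, 1.94, 2.11, 1.76 and 1.86 with smoke. Its summed red signal was 162147, 32566, 25535, 26684 and 36110 in room air and 69404, 54254, 42710, 47050 and 47665 with smoke. Room air replicate 1 had the highest neutrophil mean and sum of the 10 arrays, as it had the highest Stfa1 ratio. The neutrophil gene with the brightest red signal, S100a9, gave 81.7% of the sum on average, which also depends on how well each probe binds, and had a difference of 0.16 with an adjusted p of 0.852 from limma. Without room air replicate 1, 7 of the 18 were called, against 10.4% of all genes. Leaving out each array in turn gave from 2 to 7, against 6.06% to 10.4% of all genes. The part of neutrophil number in the Stfa1, Slpi and Serpina3n values was not tested.

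Of 17 acute-phase genes 5 rose, 29.4% against 8.22% of all genes, with a median difference of 0.71. They were Saa3, Lcn2, C3, Cp and Orm1, with differences of 4.23, 2.63, 1.38, 1.16 and 1.02. The groups overlapped for all of these except C3. Saa3 had an SD of 2.84 in room air and an adjusted p of 0.0370 from limma. In green the Orm1 probe was well above background on 1 of 5 arrays of each group. In red it was so on 4 of 5 room air and 5 of 5 smoke arrays. A positive difference was found for 12 of the 17, and the lowest was that of Il6, -0.32. The mean log2 ratio of the acute-phase list was 2.26, 0.42, 0.43, 0.38 and 0.34 in room air and 1.81, 1.88, 1.85, 1.55 and 1.82 with smoke. Room air replicate 1 again lay above every smoke array, as it did for Stfa1, and for Serpina3n it lay above 4 of 5. The summed red signal was 586174 in room air replicate 1, from 188603 to 227530 in the other room air arrays and from 303612 to 378731 with smoke, and the gene with the brightest red signal, Hp, gave 52.6% of the sum on average and had a difference of -0.04. With the replicate block 9 of the 17 were called, against 13.8% of all genes. Without room air replicate 1 there were 10, against 10.4%, and without any other single array there were 2, against 6.06% to 7.83%. The part of an acute-phase state in the Serpina3n values was not tested.

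**Figure D4:**
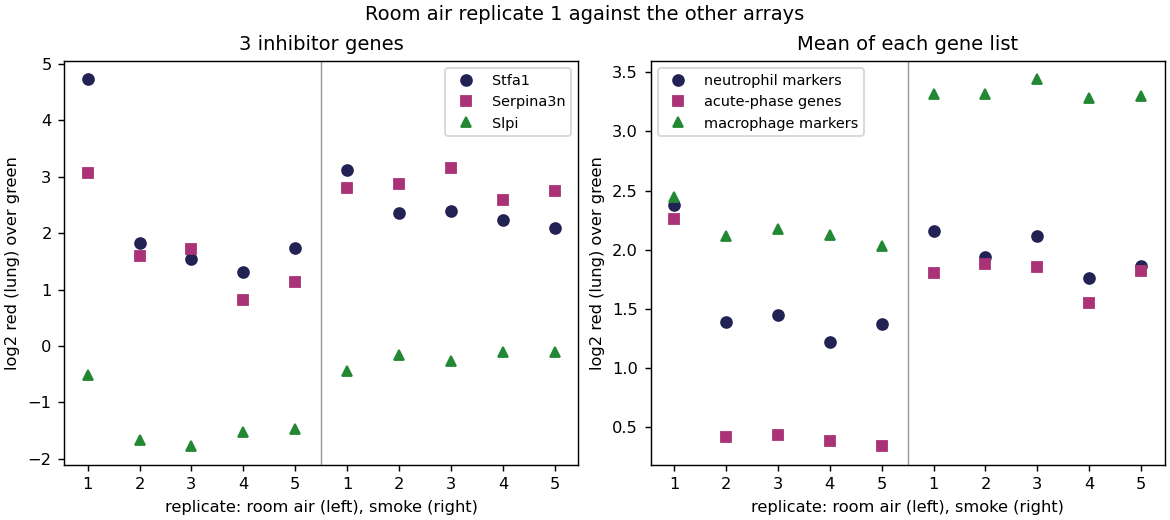
Log2 red over green on each array for 3 inhibitor genes (left) and the mean of 3 marker lists (right), with room air replicates 1 to 5 and then smoke replicates 1 to 5 in each panel. Room air replicate 1 lies with or above the smoke arrays for Stfa1, Serpina3n, the neutrophil and the acute-phase means, and below them for Slpi and the macrophage mean.

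The liver makes the Serpina1 proteins, and of 13 hepatocyte markers measured limma called 0, against 8.22% of all genes. In this list Cps1 and Ttr were well above background in red on 0 of 10 arrays. The summed red signal of this list ran from 1112 to 3277 in room air and from 1311.6 to 1464 with smoke, with Hpx the gene of the brightest red signal and a median difference of -0.027. Limma also called 0 of 13 club, goblet and serous airway cell markers and 0 of 9 ciliated cell markers. Against the same 8.22% of all genes, it called 0 of 8 alveolar type 2 and 0 of 7 alveolar type 1 cell markers. In these 4 lists the genes with the brightest red signal were Cbr2, Cfap126, Sftpc and Hopx, with differences of 0.05, 0.32, -0.13 and -0.06. The Sftpc probe was saturated in red on 1 array. The median differences of these 4 lists were 0.47, 0.16, 0.08 and -0.16, and 10 of 13, 7 of 9, 7 of 8 and 2 of 7 genes had a positive difference. With the replicate block 4 airway secretory, 2 ciliated and 2 type 2 markers were called higher and 2 type 1 markers lower, against 13.8% of all genes called in either direction. Without room air replicate 1 the airway secretory list had 5 and the hepatocyte list 1, against 10.4% of all genes. Room air replicate 1 had the highest airway secretory mean log2 ratio of the 10 arrays, 4.61. The other room air arrays ran from 3.40 to 3.89 and the smoke arrays from 3.86 to 4.46. The summed red signal of the airway secretory list ran from 989014 to 1188210.01 in room air and from 1019668 to 1190641 with smoke, and that of the ciliated list from 14528 to 17392 and from 17121 to 21077. For the type 2 list it ran from 909442 to 1005133 in room air and from 998999.7 to 1106706 with smoke, so the groups overlapped for these 3 sums. The summed red signal of the alveolar type 1 list ran from 155254 to 176958 in room air and from 115112 to 128217 with smoke, while its mean log2 ratio overlapped between the groups.

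The genes whose deviations from the group means were most like those of each called inhibitor were sought among 15441 genes well above background in both channels. For Serpinb1a over the 10 arrays these were Nudt14 (r = 0.965), Dctpp1 (r = 0.949) and Sms (r = 0.946). None of these 3 passed the threshold, with differences of 0.06, 0.27 and -0.12. For Slpi they were Lilrb4a (r = 0.977), Ccl4 (r = 0.973) and Fcer1g (r = 0.972), a receptor, a chemokine and a receptor chain of white blood cells. Lilrb4a rose by 1.66 and Fcer1g by 1.24, with adjusted p values of 0.000836 and 0.000813, while Ccl4 had a difference of 1.56 with an adjusted p of 0.266 from limma. All 3 were high in room air replicate 1 within its group, at -0.08, 1.02 and 0.47, as Slpi was at -0.51. The next room air arrays were at -1.18, -2.73 and -0.32 for the 3 genes and at -1.47 for Slpi. The r values for Slpi therefore lean heavily on room air replicate 1. How they stand without it was not tested.

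The table of processed values that the authors deposited gave another picture. Its columns were compared with the mean of the log2 red and log2 green signals of each scanner array, after centring each probe. Each of its 10 columns correlated best, across probes, with the array of the same number in the other group. The r ran from 0.428 to 0.918, against -0.132 to 0.688 for the array of its own label. With log2 red alone the best r ran from 0.473 to 0.872. How far this table holds the reference colour was not tested. With its columns as labelled the difference was -0.32 for Serpinb1a, -0.54 for Slpi and -0.90 for Serpina3n, and exchanging the groups turns their signs. The paper lists Cyp1b1 and Nqo1 as higher in mice exposed to smoke, as they were on the scanner arrays labelled smoke. Limma called 16 probes of that table and 0 of the 9 inhibitor genes, against 0.0784% of its 17848 genes.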

How the data were processed

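The scanner files that the authors deposited come, per the file headers, from Agilent Feature Extraction 9.5.3.1, while the submitters' processing notes name version 9.1. Per the file headers they hold, for each spot, the intensity of both colours and of the local background, the log10 ratio of red to green from the software's own correction, and other marks of 0 and 1 for spots above background, saturated or outlying. The authors also deposited processed log2 values, with limma named but no function.

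Mean spot intensity was corrected with limma's normexp against the median local background (offset 50, all spots), control spots were dropped, log2 ratios were loess-normalized within arrays, spots marked as outliers (83 to 144 per array) were set missing and spots of a probe averaged. No dim probes were removed. The two-sided test was limma's (lmFit, then eBayes; version 3.58.1, R 4.3.3), and its p values were adjusted over all 41173 probes by Benjamini-Hochberg. A probe was named by its accession in the RefSeq table (22951), its name in the scanner file (8455), a current symbol (6659) or a synonym (3109). Only the limma fit and the exact Wilcoxon test were checked on simulated data, log2 ratios drawn independently for each array. The background, normalization and naming steps were not checked this way. Neither shared slides nor an outlying array was simulated.

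The 9 genes and all lists were chosen with earlier results of these data known. The text names all 9 genes, and of each inhibitor and protease list up to 6 called genes per direction with a fold over 1.5 and signal on all 5 arrays of the higher group. It also names the 3 genes most like each called inhibitor, and of each marker list its summed red signal (background-corrected and quantile-normalized) and the gene with the brightest red signal. Other called genes of the lists are marked as named after their values were seen.

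Replicate numbers pair the arrays, since the 5 slides each hold 1 smoke and 1 room air array of the same number. Deviations from the group means were correlated between arrays of 1 number (r = 0.157, 0.460, 0.461, 0.550 and 0.415 across probes, with other numbers between -0.377 and 0.205). The slides were scanned on 4 days. Alternatives changed the test, background, normalization, channel, filter, probe choice and block, and left out each array. Control spots at weight 0, leaving out slide 1, and the deposited table with its groups exchanged were chosen after seeing the data.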

Additional observations from a re-analysis of the deposited data

Results flagged for a closer look

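In 18 of 74 groups of 5 arrays, the gap between 1 array and the nearest other was over 0.71 of the range of the group, and chance marks about 1 in 20 groups. The groups are not independent, since the 3 Stfa1 probes overlap and Lilrb4a, Ccl4 and Fcer1g were taken for following Slpi, so the count cannot be read against that rate. In 11 of the 18 that array was room air replicate 1. No cause was tested for any of them.

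Among the inhibitor genes, room air replicate 1 was high for the brighter Slpi probe (log2 ratio -0.51, next -1.47) and for the Stfa1 probes A_51_P384894 (4.73, next 1.83), A_52_P487686 (3.47, next 0.91) and A_51_P132185 (2.60, next 0.70). It was also high for Ctsc (4.28, next 3.67), Wfdc21 (3.15, next 1.64), Lilrb4a (-0.08, next -1.18), Ccl4 (1.02, next -2.73) and Fcer1g (0.47, next -0.32). The means of the neutrophil list (2.38, next 1.45) and the acute-phase list (2.26, next 0.43) were high on it too.

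Among the smoke arrays, replicate 3 was high for Serpina1e (1.42, next 1.00) and for the macrophage mean (3.44, next 3.32), and replicate 2 was high for Cst3 (1.55, next 1.44). Smoke replicate 4 was low for Ctsk (4.56, next 4.83), for the alveolar type 1 mean (3.71, next 4.11) and for the acute-phase mean (1.55, next 1.81). Smoke replicate 1 was low for Fcer1g (0.85, next 1.03).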

How the results depend on the processing

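Results were recomputed under 25 alternatives, 22 planned and 3 chosen after seeing the data. Of the single-gene values, 483 kept their direction and their side of the threshold, 39 turned, 9 passed only under the alternative and 27 only as reported. The 39 include the values that turned in the authors' table with columns as labelled. Those columns each correlated best, by the mean of both colours, with a scanner array of the other group. Except where stated, the cause of a change was not tested. Control spots at weight 0 gave 2908 calls.

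The exact Wilcoxon test called 0 probes and 0 genes of any list or of the 9, with a smallest adjusted p of 0.115 and 5446 probes at an unadjusted p under 0.05. In the authors' table limma called 16 probes (exchanging the groups changes signs, not calls), 1 cysteine protease and 0 of the 9 genes, the serpins, WAP proteins, cystatins and serine proteases. With columns as labelled 0 of the 9 genes were higher on every slide, against 9.02% of the 15283 genes compared this way. With the same columns these values turned: Serpina1d 0.47, Serpina3n -0.90, Serpinb1a -0.32, Slpi -0.54, Wfdc2 -0.39, Cst3 0.05, Stfa1 -0.10, Ctsk -2.45, Ctss -0.52, Ctsz -0.44, Ctsb -0.40, Ctsc -0.37, Ctsl -0.21, Cstb -0.40 and Fetub -0.49. With groups exchanged Serpind1 was -0.07.

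Median centring called 1434 probes and 1 other serpin, and turned the dimmer Slpi probe (0.00) and Stfa1 A_51_P132185 (0.02). The red processed signal called 1759 probes and turned Cst3 (0.03) and A_51_P132185 (0.35). The scanner's own ratio called 2 other serpins, 1 WAP protein, 2 cystatins and 0 serine proteases, and turned Serpina1d (0.02), Cst3 (0.00) and A_51_P132185 (0.33). Scaling between arrays turned Serpina1d (0.03), Cst3 (0.02) and A_51_P132185 (0.06). No background subtraction called 1 serine protease and turned A_51_P132185 (0.06), and quantile-normalized red called 2 other serpins and turned it (0.13). Of all genes, median centring called 4.14%, the scanner's own ratio 7.17%, no background subtraction 8.11% and quantile-normalized red 6.67%. Averaging the probes of each gene called 1 of the 9 genes, against 7.86% of all genes, with 1 higher on every slide, against 12.1%.

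The replicate block called 5019 probes and 7 serine proteases, and Serpina3n passed. It changed no other call among the genes whose array values are given. Serpina3n also passed with scaling between arrays, with the filter on dim probes, without room air replicate 1 and without slide 1.

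Without slide 1, 4 of the 9 genes were called, against 8.08% of all genes, 4 were higher on every slide left, against 16.2%, and A_51_P132185 was 0.26. Leaving out each array in turn, the calls over all probes ran from 2102 to 3660, those among the 9 genes from 2 to 4 (all genes from 6.06% to 10.4%), those higher on every slide left from 2 to 4 (all genes from 14.1% to 16.2%), and serine proteases from 1 to 6. The differences ran from -0.24 to 0.02 for Serpina1d, -0.11 to 0.29 for the dimmer Slpi probe, -0.02 to 0.83 for Stfa1 A_51_P384894, 0.00 to 0.69 for A_52_P487686 and -0.14 to 0.39 for A_51_P132185. Those of Serpinb1a and the brighter Slpi probe ran from 0.62 to 0.69 and from 1.07 to 1.39 and passed each time. Signal over background limits some ratios, since A_52_P487686, A_51_P132185 and Serpina1b were above background in green on 0 arrays.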
